A study of Mus musculus with 18 samples.

Results

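The comparison asked whether cells with a defect of the primary cilium change their gene expression under high laminar shear in the way that wild-type cells do. For each gene, the change from static culture to 30 dyn/cm² was measured in wild-type (WT) cells and in Tg737orpk/orpk cells, and the WT change was subtracted from the orpk change. A gene was described where each of the 4 groups held more than 3 reads, summed over its libraries. Of 21647 listed genes 12090 met this rule, and 11768 of them had enough reads to be tested.

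Both genotypes are mouse embryonic aortic endothelial cells by their labels, and orpk is an insertion mutation in Ift88. The groups were static WT, WT at 30 dyn/cm², static orpk and orpk at 30 dyn/cm², with 3 libraries in each. All cells were grown to confluence on gelatin-coated slides and serum starved for 24 h, and flow then lasted 48 h. Groups at 2 dyn/cm² brought the series to 18 libraries, and here they entered the filter, the scaling and the shared estimate of the spread. How long the static cultures lasted, the ages of the embryos and whether cells were isolated separately are not given in the sources used here. The genotype and any other difference between the 2 cell populations therefore cannot be told apart, and p-values measure the spread between libraries, which may be technical.

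The primary cilium is a single antenna of microtubules that projects from the surface of many cells, endothelial cells among them. Ift88 is part of the IFT-B complex of intraflagellar transport, which carries cargo towards the tip of the cilium, and orpk is a hypomorphic allele that leaves cilia short or absent. Endothelial cells sense the drag of flowing blood through junctions, ion channels, the glycocalyx and cilia, and steady laminar flow is known to raise the transcription factors Klf2 and Klf4 and to lower the vasoconstrictor endothelin-1.

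The 12 libraries compared held 13626480 to 17243680 reads. Several markers of endothelium were missing: of 16 listed, 8 had 0 reads in both WT groups, Cdh5, Kdr and Erg among them, and 3 (Sox17, Cldn5 and Robo4) had 0 reads in all 4 groups. The summed level of that list was 52.2 to 53.8 CPM (reads relative to the library's total, after TMM scaling) in static WT and 25.3 to 28.5 CPM in sheared WT. It was 109.3 to 111.9 CPM in static orpk and 137.8 to 142.2 CPM in sheared orpk, so it moved in opposite directions with flow. Most of it was Flt1, a VEGF receptor also made by other cells. Of the list's 4 members Flt1 had a higher response in orpk, Egfl7 a lower one and 2 did not pass. These are 25% each way, against 33.5% and 29.0% of all tested genes. The summed fibroblast list ran from 986 to 1155 CPM over the WT libraries and from 29250 to 40870 CPM over the orpk libraries. In WT nearly all of it was Col1a1, with 46687 static and 59579 sheared reads. The next highest marker in WT, Col1a2, had 859 and 937 reads.

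The 2 genotypes differed in their response at most genes. In edgeR's quasi-likelihood test 7366 of the 11768 tested genes passed an adjusted p of 0.05 (62.6%), where the response was higher in orpk, that is more positive, for 3948 genes (33.5%) and lower for 3418 (29.0%). With library totals in place of TMM factors these counts were 3233 higher and 4279 lower, so that 43.0% of calls were higher against 53.6%. Most differences were small: the median size was 0.35 on the log2 scale over all tested genes and 0.51 over those that passed. A difference over 1, that is a ratio of fold changes over 2, was reached by 1489 genes (12.7%), 762 higher (6.48%) and 727 lower (6.18%), and one over 2 by 381 genes (3.24%). For 6939 genes (59.0%) all 9 pairings of a sheared with a static orpk library lay on one side of all 9 WT pairings.

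Within each genotype, flow changed 8364 of these genes in WT (71.1%) and 8393 in orpk (71.3%). In WT 36.5% rose and 34.5% fell, and in orpk 38.9% rose and 32.4% fell. Both responses passed for 6203 genes, in the same direction for 4370 and in opposite directions for 1833. A further 2161 genes passed in WT alone and 2190 in orpk alone. Across genes the correlation of the 2 responses, which share no library, was 0.36 (Pearson) and 0.32 (Spearman), where genes are not independent replicates. In bulk RNA a change in the share of cells that make a transcript and a change in its amount per cell cannot be told apart, here and for every gene named.

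**Figure D1:**
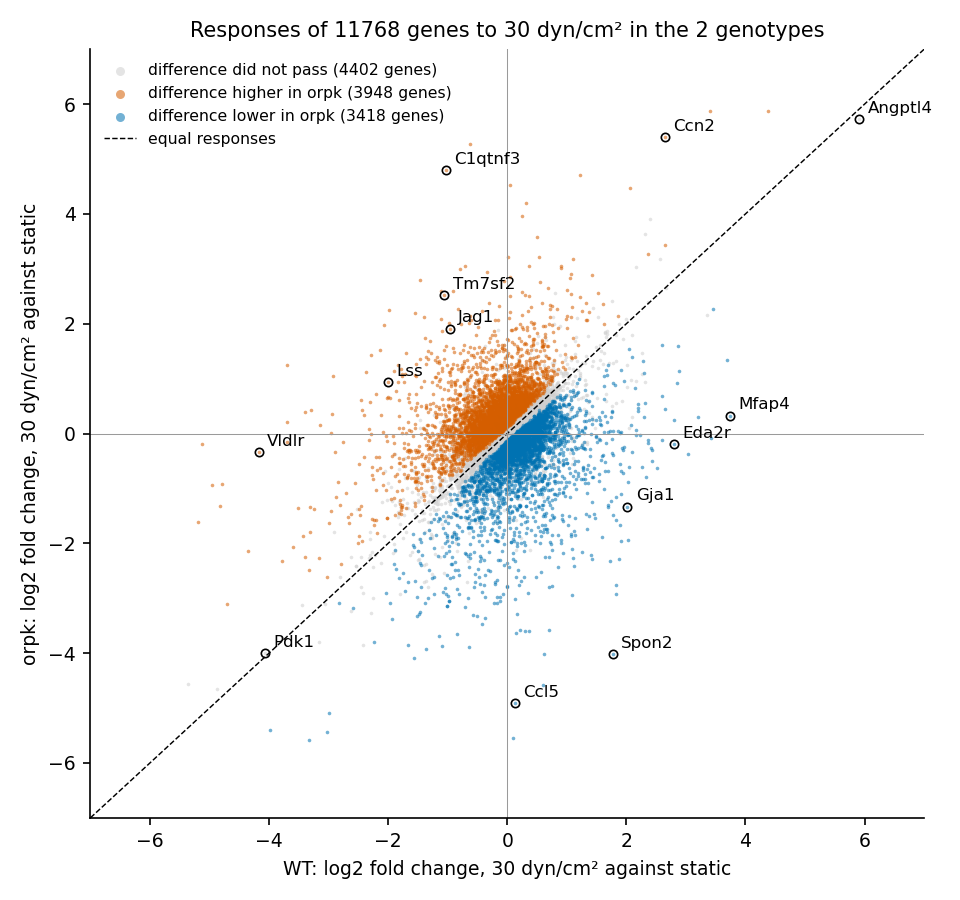
Log2 fold change from static to 30 dyn/cm² in WT (x axis) against orpk (y axis) for the 11768 tested genes, coloured by whether the difference passed. Sterol genes such as Lss and Tm7sf2 lie in the upper left quadrant, Gja1 and Spon2 in the lower right, and Pdk1 and Angptl4 on the line of equal responses.

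The 7366 genes divided by how their difference arose. The largest class, 1057 genes, fell in WT and rose in orpk, with median log2 fold changes of -0.33 and 0.40. A class of 776 genes did the reverse, with medians of 0.35 and -0.35. Another 831 rose and 782 fell in orpk alone, and 801 rose and 751 fell in WT alone. Where both genotypes moved in one direction, the change was larger in orpk for 769 rising and 583 falling genes and larger in WT for 443 and 511. Since log2 fold changes are relative, 370 of the 7366 genes (5.02%) had a difference of the opposite sign when the changes were taken in CPM.

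Cholesterol synthesis had the largest median difference of the lists examined. Cholesterol is made from acetyl-CoA through mevalonate, squalene and lanosterol, and the transcription factor SREBP2 raises these genes together when sterol in the endoplasmic reticulum is low. All 24 genes of this list had a higher response in orpk, against 33.5% of all tested genes, with a median difference of 2.12 on the log2 scale (0.02 over all tested genes). In WT 21 of the 24 fell and 1 rose, with a median of -0.94. In orpk all 24 rose, with a median of 1.27. The genotypes also changed order: in static culture 20 of the 24 were lower in orpk than in WT (44.8% of all tested genes), and under flow 21 were higher (42.7%).

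Lss, lanosterol synthase, closes squalene epoxide into the first sterol. Its level was 420.1, 436 and 429 CPM in static WT and 106, 109 and 107 CPM in sheared WT. It was 140.3, 142 and 133 CPM in static orpk and 260.5, 268 and 263 CPM in sheared orpk. The groups did not overlap, and orpk cells went from the lower level to the higher one. The log2 fold change of Lss was -1.999 ± 0.04 in WT and 0.93 ± 0.04 in orpk, a difference of 2.93 ± 0.05 (edgeR quasi-likelihood adjusted p = 6.21e-36). Hmgcs1, which makes the HMG-CoA that enters the mevalonate pathway, stood at 719, 717 and 699.7 CPM in static WT and 236, 250.85 and 241 CPM in sheared WT. Orpk libraries stood at 249.95, 258 and 274 CPM in static orpk and 535, 552 and 551 CPM in sheared orpk. Both genotypes again crossed, with log2 fold changes of -1.55 ± 0.04 in WT and 1.07 ± 0.04 in orpk, a difference of 2.62 ± 0.05 (edgeR quasi-likelihood adjusted p = 1.34e-34).

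Tm7sf2, a sterol C14 reductase, had the largest difference of the list. Its level was 49.4, 47.1 and 52.7 CPM in static WT and 24.9, 23.6 and 23.3 CPM in sheared WT, and 16.0, 19.2 and 16.0 CPM in static orpk and 96.7, 98.7 and 99.3 CPM in sheared orpk. Sheared orpk stood above every other group, static orpk below all others, and the fold changes were -1.06 ± 0.07 in WT and 2.52 ± 0.07 in orpk, a difference of 3.58 ± 0.10 (edgeR quasi-likelihood adjusted p = 6.02e-30). Fdps, which makes farnesyl diphosphate, and Mvd, mevalonate diphosphate decarboxylase, differed by 2.83 ± 0.06 and 2.75 ± 0.07 (edgeR quasi-likelihood adjusted p = 1.23e-31 and 1.17e-31). Sqle, squalene epoxidase, moved likewise, at -0.93 in WT and 1.198 in orpk. Ebp, Hsd17b7 and Idi1 had the smallest differences, from 1.36 to 1.68, as their WT values of 0.02, 0.46 and 0.18 were not below 0.

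Promoters of the list were read from RefSeq windows of GRCm38.p6, from 250 bases before to 50 after the start, which exist here for 16 of the 24 genes. CCAAT, a box bound by NF-Y, lay on either strand in 15 of the 16 (93.75%), against 41.1% of 27025 genes with a window. The sterol element TCACNCCAC lay in 1 of 16 (6.25%, against 1.44%), the Hmgcs1 promoter. The 250 bases before the start are shown for Hmgcs1, which holds both motifs, and for Lss, which holds only the CCAAT box. The plus strand of Hmgcs1 (chr13:119690101-119690350) and of Lss (chr10:76531355-76531604) is written 5′ to 3′, with matches in capitals, where ATTGG is CCAAT on the other strand.
Hmgcs1: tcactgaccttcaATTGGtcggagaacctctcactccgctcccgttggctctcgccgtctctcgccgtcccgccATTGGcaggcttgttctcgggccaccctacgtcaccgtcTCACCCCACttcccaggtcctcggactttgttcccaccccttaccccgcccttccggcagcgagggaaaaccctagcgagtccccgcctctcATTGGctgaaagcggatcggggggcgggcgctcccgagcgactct
Lss: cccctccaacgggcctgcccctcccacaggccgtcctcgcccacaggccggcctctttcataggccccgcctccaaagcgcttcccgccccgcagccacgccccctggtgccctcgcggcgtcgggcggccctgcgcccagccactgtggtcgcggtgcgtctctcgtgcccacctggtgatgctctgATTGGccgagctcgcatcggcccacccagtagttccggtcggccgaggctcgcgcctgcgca
The Hmgcs1 stretch held 3 CCAAT boxes and 1 sterol element, and Lss 1 box. No matches overlapped, and a match describes the sequence and not the binding of a factor.

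Fatty acid synthesis went the same way with smaller sizes. All 14 genes had a higher response in orpk, against 33.5% of all tested genes, with a median difference of 1.19. In WT 13 fell and 0 rose, and in orpk 10 rose and 2 fell. Scd1, the stearoyl-CoA desaturase, held 1124, 1119 and 1122 CPM in static WT and 309, 297 and 310.1 CPM in sheared WT. The orpk level was 464, 457 and 458 CPM in static orpk and 779.9, 773 and 800.0 CPM in sheared orpk. The genotypes swapped places without overlap, and the fold changes were -1.88 ± 0.03 in WT and 0.77 ± 0.03 in orpk, a difference of 2.65 ± 0.05 (edgeR quasi-likelihood adjusted p = 6.21e-36). Acly, which makes cytosolic acetyl-CoA from citrate, had fold changes of -0.72 in WT and 0.90 in orpk, also in opposite directions. Acss2, which makes acetyl-CoA from acetate, fell in WT (-2.28 ± 0.05) and stayed at -0.01 ± 0.05 in orpk, and Fasn, fatty acid synthase, did the same at -1.25 in WT and -0.03 in orpk. Of the regulators themselves, Srebf2 was opposite at -0.43 in WT and 0.53 in orpk, while Srebf1 fell in both at -0.85 in WT and -0.54 in orpk.

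**Figure D2:**
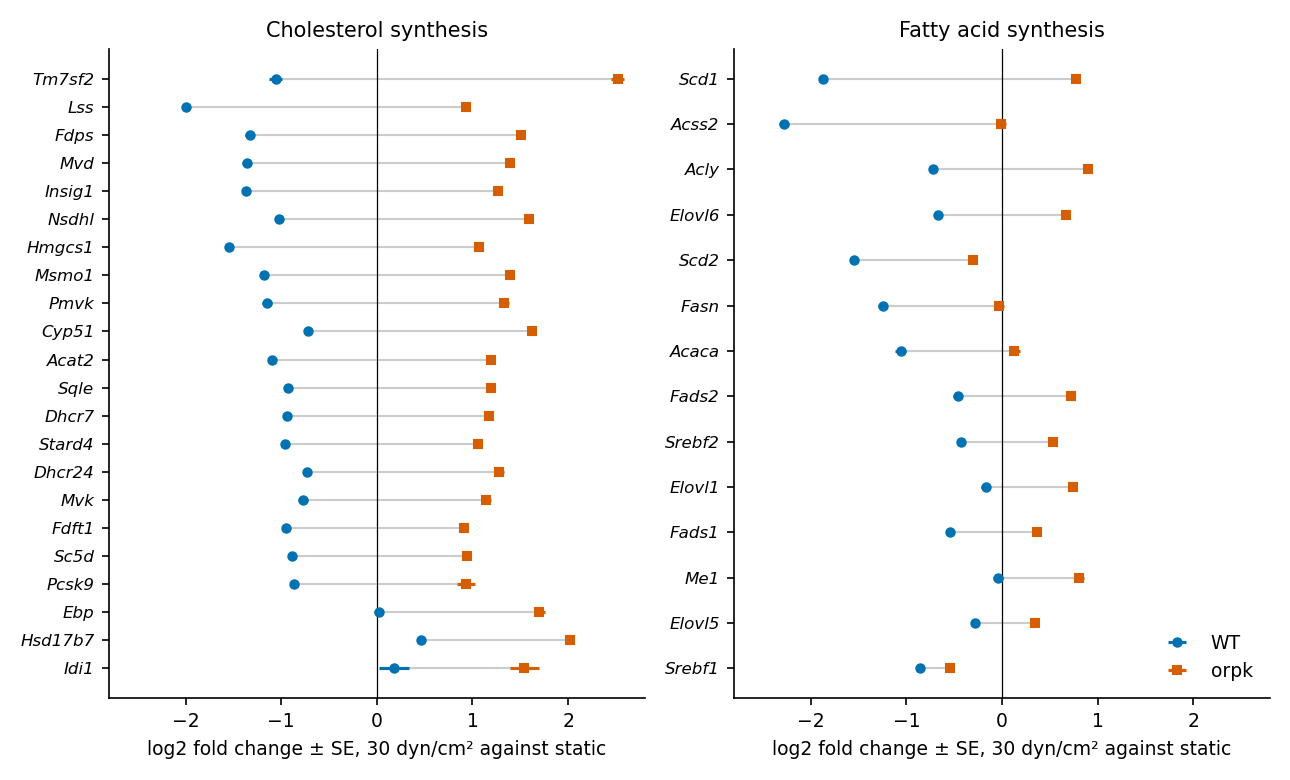
Log2 fold change ± SE from static to 30 dyn/cm² for 22 genes of cholesterol synthesis (left) and 14 of fatty acid synthesis (right), with WT as circles and orpk as squares, ordered by the difference. The squares lie to the right of the circles in all 22 and all 14 rows, and most circles lie below 0.

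Glycolysis and the hypoxia response fell steeply in both genotypes. These genes are raised by the factor HIF-1 when oxygen is short. Glycolysis fell in 20 of 20 genes in WT (median -2.26) and in 19 of 20 in orpk (median -1.86), and the differences were split, 8 higher, 5 lower and 7 not passed (40% and 25%, near the 33.5% and 29.0% over all tested genes), with a median of 0.08 that was -0.02 with library totals. In the hypoxia list 16 of 17 fell in each genotype, with 9 differences higher (52.9%) and 5 lower (29.4%). Large shared changes with a difference that did not pass were those of Pdk1, a kinase that shuts off pyruvate dehydrogenase, at -4.06 ± 0.05 in WT and -3.997 ± 0.06 in orpk, a difference of 0.07 ± 0.09 (edgeR quasi-likelihood adjusted p = 0.574). Bnip3, a mitophagy receptor, was at -4.88 in WT and -4.65 in orpk, a difference of 0.23 ± 0.13. Angptl4, an inhibitor of lipoprotein lipase, rose in both at 5.91 in WT and 5.73 in orpk, a difference of -0.19 ± 0.58. A p above the threshold does not show that these responses were equal.

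Most genes of the hypoxia list parted the genotypes: 3 of 17 differences did not pass, where 62.6% of all tested genes passed. Vegfa, the main angiogenic growth factor, held 481, 459.7 and 486 CPM in static WT and 64.0, 63.9 and 65.1 CPM in sheared WT. In orpk it stood at 371, 383 and 360.3 CPM in static orpk and 284, 296 and 297 CPM in sheared orpk. WT lost most of its Vegfa while orpk kept most, and no groups overlapped, with fold changes of -2.89 ± 0.04 in WT and -0.34 ± 0.03 in orpk, a difference of 2.54 ± 0.05 (edgeR quasi-likelihood adjusted p = 2.49e-34). Vldlr, a lipoprotein receptor, was at 225, 211 and 199 CPM in static WT and 11.6, 11.8 and 11.7 CPM in sheared WT. Its orpk values were 58.3, 58.3 and 57.5 CPM in static orpk and 45.5, 42.1 and 50.5 CPM in sheared orpk. It fell in both, far more in WT, with fold changes of -4.17 ± 0.06 in WT and -0.34 ± 0.06 in orpk, a difference of 3.83 ± 0.09 (edgeR quasi-likelihood adjusted p = 3.57e-32). Car9, a carbonic anhydrase of hypoxic cells, also fell more in WT, at -5.19 in WT and -1.61 in orpk, from static levels that overlapped (14.3, 12.9 and 12.9 CPM for WT, 13.4, 14.7 and 14.0 CPM for orpk). Apln, the peptide apelin, went the other way by fold, with a difference of -2.400 ± 0.13 (edgeR quasi-likelihood adjusted p = 3.30e-19). It fell from 174, 145 and 156 to 20.4, 19.0 and 18.9 CPM in WT. In orpk it fell from 137, 133 and 133 to 2.7, 3.14 and 3.49 CPM, so in CPM the mean fall was not larger in orpk. Egln3, an oxygen-sensing prolyl hydroxylase, and Ankrd37 also fell by a larger fold in orpk, with differences of -1.72 and -2.09.

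The cell cycle genes split by phase. Genes of DNA replication, made mostly at the G1/S boundary, had a higher response in orpk for 24 of 26 (median difference 0.83) and a lower one for 0, against 33.5% and 29.0% of all tested genes. All 26 rose in orpk, while in WT 8 rose and 10 fell. Mitotic genes were instead lower in orpk for 14 of 24 and higher for 3 (58.3% and 12.5%, median -0.46). Of these 24 genes 5 rose and 16 fell in orpk, and 11 rose and 8 fell in WT. The 3 higher mitotic genes, Aurkb, Mad2l1 and Bub1, became 1 with library totals or without static orpk replicate 2.

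Mcm6, a subunit of the replicative helicase, held 432, 438 and 423 CPM in static WT and 341, 346 and 339 CPM in sheared WT. Values in orpk were 103, 96.7 and 97.7 CPM in static orpk and 213, 207 and 204 CPM in sheared orpk. WT stayed above orpk throughout, and the gap narrowed under flow, with fold changes of -0.34 ± 0.04 in WT and 1.07 ± 0.04 in orpk, a difference of 1.402 ± 0.06 (edgeR quasi-likelihood adjusted p = 7.86e-24). E2f1, an S-phase transcription factor, had opposite changes of -0.99 in WT and 0.26 in orpk. Pcna, the sliding clamp, rose in orpk only (0.99 ± 0.05, against -0.06 ± 0.04 in WT). Plk1, a kinase of mitotic entry, held 129, 138 and 134 CPM in static WT and 166, 162 and 163 CPM in sheared WT. Its orpk libraries held 59.8, 61.0 and 54.2 CPM in static orpk and 33.4, 30.7 and 32.9 CPM in sheared orpk. Here the gap widened, as Plk1 rose slightly in WT and fell in orpk, at 0.29 ± 0.04 in WT and -0.85 ± 0.06 in orpk, a difference of -1.15 ± 0.07 (edgeR quasi-likelihood adjusted p = 6.41e-18). Cdc20, an activator of the anaphase-promoting complex, Cenpe, a kinetochore motor, and Hmmr had differences of -1.28, -1.15 and -1.07, each up in WT and down in orpk. Mki67, the proliferation marker Ki-67, fell in both at -0.59 in WT and -0.51 in orpk, and its difference did not pass.

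Of 20 replication genes with a promoter window 7 (35%) held TTTGGCG, an E2F element, against 1.77% of all genes. Mcm6 holds it on the printed strand in a pair, and its 250 bases before the start (chr1:128359706-128359955, minus strand, GRCm38.p6) are written with the matches in capitals.
Mcm6: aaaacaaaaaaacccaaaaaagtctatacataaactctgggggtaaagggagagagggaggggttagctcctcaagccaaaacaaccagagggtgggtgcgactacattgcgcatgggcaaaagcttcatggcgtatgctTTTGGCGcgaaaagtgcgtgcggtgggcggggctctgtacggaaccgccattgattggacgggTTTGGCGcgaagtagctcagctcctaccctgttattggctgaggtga

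Interferon-stimulated genes, an antiviral program of infected and neighbouring cells, fell further in orpk. Of 24 genes 17 had a lower response in orpk and 3 a higher one (29.0% and 33.5% of all tested genes), with a median difference of -1.13. In WT 17 fell and 2 rose (median -0.50), and in orpk 22 fell (median -1.78). Gbp2, an interferon-induced GTPase, held 0.653, 1.19 and 0.632 CPM in static WT and 1.14, 1.39 and 1.54 CPM in sheared WT. Orpk libraries stood at 42.6, 44.2 and 42.2 CPM in static orpk and 6.07, 7.002 and 5.74 CPM in sheared orpk. It was near the limit of detection in WT and lost most of its level in orpk, with fold changes of 0.75 ± 0.28 in WT and -2.77 ± 0.09 in orpk, a difference of -3.52 ± 0.30 (edgeR quasi-likelihood adjusted p = 2.80e-13). Ifit1, which binds viral RNA, held 12.3, 11.3 and 7.99 CPM in static WT and 4.73, 4.66 and 6.01 CPM in sheared WT. The orpk level was 23.2, 25.6 and 19.5 CPM in static orpk and 3.15, 2.001 and 2.64 CPM in sheared orpk. Orpk started above WT and ended below it, at -1.02 ± 0.19 in WT and -3.14 ± 0.20 in orpk, a difference of -2.12 ± 0.30 (edgeR quasi-likelihood adjusted p = 6.62e-06). Isg15, a ubiquitin-like modifier, had changes of -0.39 in WT and -2.30 in orpk. Ifit3, Ifit2 and Stat2 were the 3 with a higher response in orpk (2 genes with library totals), and Ifit3 fell in both at -3.79 in WT and -2.31 in orpk.

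The interferon element TTTCNNTTT was found in 14 of 19 windows of the list (73.7%), against 12.1% of all genes. It is shown in the 250 bases before the start of Ifit1 (chr19:34640639-34640888, plus strand) and of Gbp2 (chr3:142620413-142620662, plus strand), both GRCm38.p6, with matches in capitals.
Ifit1: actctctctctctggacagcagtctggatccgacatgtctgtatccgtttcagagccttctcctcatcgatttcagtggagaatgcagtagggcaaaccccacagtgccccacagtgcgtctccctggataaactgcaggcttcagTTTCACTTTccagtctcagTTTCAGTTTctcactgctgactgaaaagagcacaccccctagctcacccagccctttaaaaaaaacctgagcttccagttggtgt
Gbp2: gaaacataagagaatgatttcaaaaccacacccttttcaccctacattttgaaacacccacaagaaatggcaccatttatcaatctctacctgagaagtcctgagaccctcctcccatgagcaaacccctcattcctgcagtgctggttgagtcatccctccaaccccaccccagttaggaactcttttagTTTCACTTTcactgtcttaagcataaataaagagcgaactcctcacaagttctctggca

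**Figure D3:**
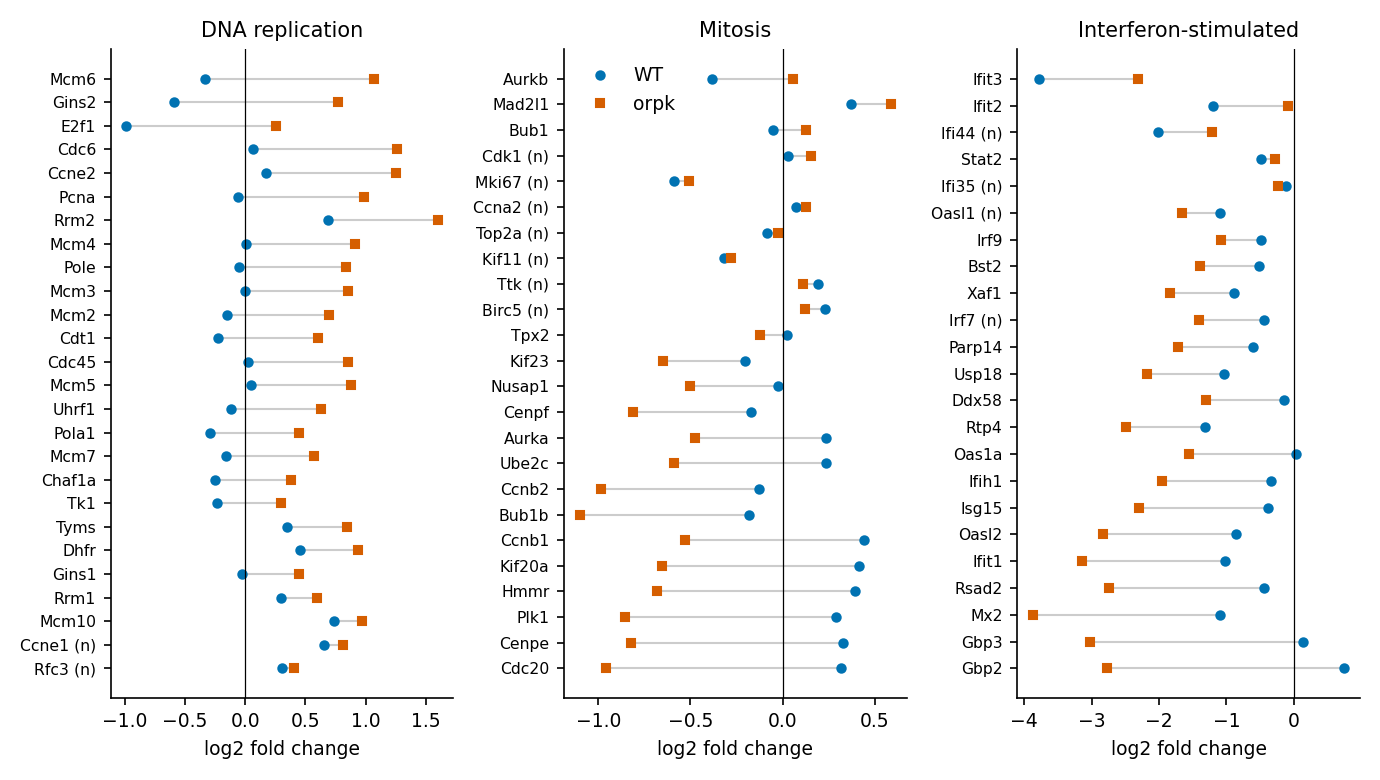
Log2 fold change from static to 30 dyn/cm² in WT (circles) and orpk (squares) for 26 replication, 24 mitosis and 23 interferon-stimulated genes, with (n) for a difference that did not pass. Orpk lies to the right of WT for most replication genes and to the left for most interferon genes and for the lower mitosis rows.

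Chemokines did not follow a single direction. Ccl5, a T cell attractant that interferon also raises, held 7.64, 7.14 and 6.72 CPM in static WT and 6.53, 7.77 and 8.99 CPM in sheared WT. In orpk it stood at 28.3, 31.1 and 28.2 CPM in static orpk and 1.27, 1.00 and 0.62 CPM in sheared orpk. WT stayed level while orpk dropped from above WT to below it, with fold changes of 0.12 ± 0.19 in WT and -4.90 ± 0.24 in orpk, a difference of -5.03 ± 0.34 (edgeR quasi-likelihood adjusted p = 2.12e-10). Ccl2 and Ccl7, which attract monocytes, went up in orpk and down in WT, at -0.85 in WT and 1.26 in orpk for Ccl2 and at -1.76 in WT and 1.09 in orpk for Ccl7, where Ccl7 had under 1 CPM in every WT library. Of the 20 genes of chemokines and NF-kB, 8 differences were higher (40%), 5 lower (25%) and 7 did not pass, shares near the 33.5% and 29.0% of all tested genes.

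Among the classic flow genes of endothelium, directions opposed each other for Klf4 and Edn1. Klf4 held 49.1, 38.4 and 46.1 CPM in static WT and 19.1, 18.6 and 18.3 CPM in sheared WT. Values in orpk were 137, 136 and 126 CPM in static orpk and 258, 262 and 250.50 CPM in sheared orpk. It was above WT at both conditions and the gap grew, with fold changes of -1.26 ± 0.07 in WT and 0.94 ± 0.05 in orpk, a difference of 2.203 ± 0.09 (edgeR quasi-likelihood adjusted p = 8.45e-21). Klf2, in contrast, did not pass in WT and fell in orpk, from 31.0, 26.7 and 26.7 to 15.3, 16.0 and 16.8 CPM, against 6.98, 5.32 and 6.95 and 7.73, 6.16 and 6.23 CPM in WT, a difference of -0.86 ± 0.18 (edgeR quasi-likelihood adjusted p = 9.19e-05). Edn1, endothelin-1, held 8.42, 8.12 and 7.07 CPM in static WT and 5.09, 4.66 and 3.47 CPM in sheared WT. Its orpk libraries held 4.28, 4.2 and 5.27 CPM in static orpk and 10.9, 10.5 and 9.69 CPM in sheared orpk. The genotypes swapped places without overlap, at -0.83 ± 0.13 in WT and 1.18 ± 0.13 in orpk, a difference of 2.01 ± 0.19 (edgeR quasi-likelihood adjusted p = 2.80e-12). Vcam1, an adhesion molecule for leukocytes, fell in both, by a larger fold in WT, at -2.88 ± 0.23 in WT and -1.15 ± 0.07 in orpk. The difference was 1.73 ± 0.26 (edgeR quasi-likelihood adjusted p = 7.20e-06). Its mean went from 10.2 to 1.37 CPM in WT and from 199 to 89.9 CPM in orpk, so in CPM the fall was larger in orpk. Nos3, the endothelial nitric oxide synthase, and Pecam1 were under 3 CPM in every library, and their differences of -0.72 ± 0.69 and 0.40 ± 0.71 did not pass (edgeR quasi-likelihood adjusted p = 0.388 and 0.66).

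Of the 15 genes of this laminar shear list, 8 differences were higher (53.3%), 4 lower (26.7%) and 3 did not pass, against 33.5% and 29.0% of all tested genes. Angpt2, a destabiliser of vessels, was lower, with opposite changes of 1.12 in WT and -2.42 in orpk and under 1 CPM in every WT library. Ptgs2, the inducible cyclooxygenase, rose in both, more in orpk, at 1.42 in WT and 2.88 in orpk. Flt1 fell in WT from 41.2, 39.2 and 40.7 to 15.8, 17.5 and 16.0 CPM and rose in orpk from 92.1, 94.8 and 93.9 to 127, 128 and 126 CPM, a difference of 1.74 ± 0.08 (edgeR quasi-likelihood adjusted p = 6.39e-22). Npr3, the clearance receptor of natriuretic peptides, fell in both, more in WT, at -3.24 in WT and -1.37 in orpk. The summed endothelial markers moved in the same opposite directions as Klf4, Edn1 and Flt1, but most of that sum was Flt1 itself. In orpk Egfl7, Kdr, Tek and Erg fell, from 183, 133, 72 and 57 reads static to 90, 32, 25 and 29 under flow. Cdh5, Esam and Vwf rose there, from 26, 58 and 192 to 45, 70 and 206 reads. The part of these markers in the results was not tested.

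Jag1, a Notch ligand, changed in opposite directions. It held 197, 173 and 183 CPM in static WT and 98.1, 92.7 and 93.0 CPM in sheared WT. Orpk libraries stood at 66.7, 74.3 and 79.5 CPM in static orpk and 272, 275 and 281 CPM in sheared orpk. WT led in static culture and orpk led under flow, with no overlap, and the fold changes were -0.96 ± 0.05 in WT and 1.91 ± 0.05 in orpk, a difference of 2.87 ± 0.07 (edgeR quasi-likelihood adjusted p = 1.27e-27). The Notch target Hes1 rose in both, more in orpk, at 0.23 in WT and 1.25 in orpk. The receptor Notch3 fell in orpk from 407, 403 and 390.2 to 51.2, 49.4 and 51.4 CPM and did not pass in WT (-0.18 ± 0.18), while Notch4 rose in orpk (1.00 ± 0.18). The 12 Notch genes as a whole were 5 higher, 2 lower and 5 not passed (41.7% and 16.7% against 33.5% and 29.0%).

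**Figure D4:**
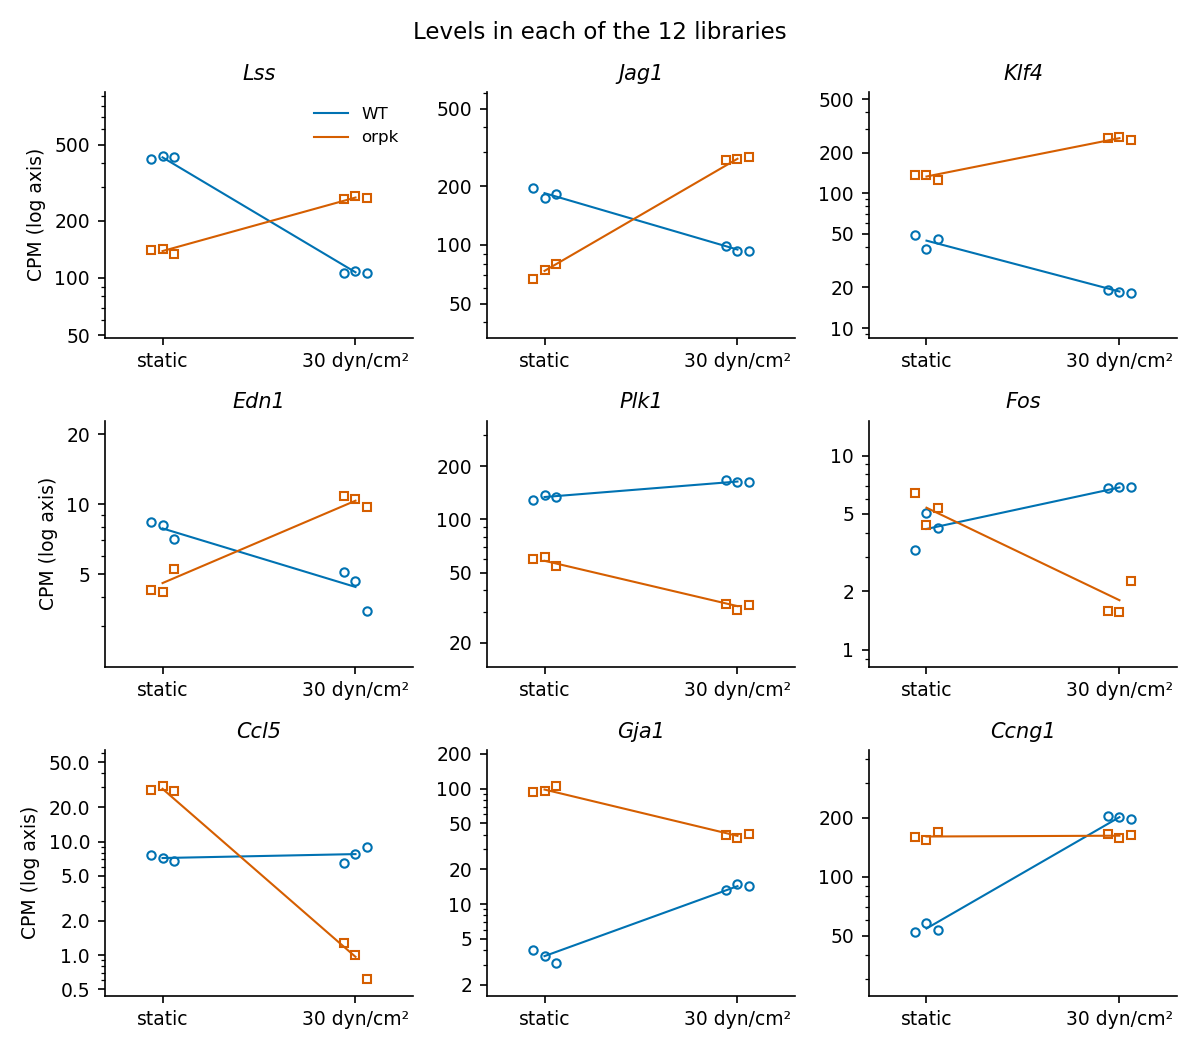
CPM (log axis) in each of the 12 libraries for 9 genes, static and at 30 dyn/cm², with WT as circles, orpk as squares and lines joining group means. Lss, Jag1, Edn1, Ccl5 and Ccng1 change the order of the genotypes, while Klf4 and Plk1 diverge and Gja1 converges. The group means of Fos also change order, but its static groups overlap.

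Targets of YAP and TAZ, coactivators that respond to tension and cell spreading, had a higher response in orpk for 16 of 22 and a lower one for 2 (72.7% and 9.09%, against 33.5% and 29.0% of all tested genes), with a median difference of 0.64. Ccn2, connective tissue growth factor, held 43.5, 55.3 and 53.04 CPM in static WT and 324, 313 and 312 CPM in sheared WT. The orpk level was 10.3, 12.7 and 8.05 CPM in static orpk and 449.8, 433 and 433 CPM in sheared orpk. It rose in both, from a lower start to a higher end in orpk, at 2.64 ± 0.09 in WT and 5.40 ± 0.11 in orpk, a difference of 2.75 ± 0.15 (edgeR quasi-likelihood adjusted p = 3.00e-10). Ccn1 rose in both at 1.06 in WT and 2.55 in orpk, as did the YAP partner Tead4 at 0.35 in WT and 2.24 in orpk, while Nuak2 rose in orpk only (1.88 ± 0.08). Tgfb2 was the largest exception, falling in orpk (-1.81 ± 0.05) with 0.31 ± 0.22 in WT. GGAATG, the TEAD element, lay in 8 of 15 windows of the list (53.3%, against 16.6% of all genes).

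Contractile and cytoskeletal genes were higher for 15 of 20 and lower for 1, Des (75% and 5%, against 33.5% and 29.0% of all tested genes), with a median of 0.75. Myh9, a non-muscle myosin heavy chain, rose more in orpk at 0.13 in WT and 0.86 in orpk, and Flna and Actn1, which cross-link actin, had differences of 0.59 and 0.89. Acta2, smooth muscle actin, rose in orpk from 666, 696 and 615 to 2082, 1970.0 and 1969.9 CPM, while no WT library reached 1 CPM, and its difference was 1.66 ± 0.39 (edgeR quasi-likelihood adjusted p = 0.000622). The 10 smooth muscle and pericyte markers summed to 9.59 to 10.75 CPM in static WT and 12.9 to 14.6 CPM in sheared WT, and to 1118 to 1155 CPM in static orpk and 1615 to 1711 CPM in sheared orpk. Of its 6 members 2 differences were higher, 3 lower and 1 did not pass, and 2 listed markers had 0 reads in all 4 groups. In orpk Cspg4 alone rose by 767 CPM, from a mean of 123 to 891 CPM, which is more than the sum rose. Notch3 fell there from 17270 to 2038 reads, and of the 6 members 3 rose and 2 fell in orpk. The summed markers were higher under flow in both genotypes, whereas 16 of the 20 contractile genes rose in orpk and 6 rose and 9 fell in WT. The part of these markers in the contractile result was not tested.

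Growth factors and their receptors moved in both directions. Pdgfra, the PDGF receptor alpha, fell from 1775, 1756 and 1793 to 148, 144 and 154 CPM in orpk. WT held 0.522, 0.42 and 0.862 CPM static and 1.02, 1.17 and 0.827 CPM sheared. Pdgfb, a PDGF chain made by endothelium, rose in both, by a larger fold in orpk, a difference of 2.69 ± 0.16 (edgeR quasi-likelihood adjusted p = 2.47e-18). It went from 1.71, 1.94 and 1.61 to 18.5, 16.9 and 13.8 CPM in orpk. In WT it went from 123, 124 and 117 to 175, 174 and 177 CPM. In CPM the mean rise was larger in WT, at 53.6 against 14.7 CPM in orpk. Fgf2 rose in orpk and fell in WT at -1.12 in WT and 2.60 in orpk, and Igfbp4 did the reverse at 1.87 in WT and -2.28 in orpk. The WT level of Fgf2 was low, with means of 0.847 CPM static and 0.378 CPM sheared, from 39 and 20 reads. The list of 20 was 8 higher, 6 lower and 6 not passed (40% and 30%, near the shares over all tested genes), with a median of -0.03, which was 0.56 over genes with at least 1 CPM in each group. The fibroblast markers summed to 986 to 1052 CPM in static WT and 1148 to 1155 CPM in sheared WT. In orpk they summed to 40020 to 40870 CPM static and 29250 to 31180 CPM sheared. In WT nearly all of this sum was Col1a1. Of 6 members 1 was higher and 3 lower (16.7% and 50%, against 33.5% and 29.0% of all tested genes). None of the 10 markers had 0 reads in all 4 groups, and the part of this list in the result was not tested.

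Collagens and other matrix genes were mixed: 6 of 19 collagens were higher and 9 lower, and 10 of 22 other matrix genes were higher and 5 lower. Over all tested genes 33.5% were higher and 29.0% lower, against 31.6% and 47.4% of the collagens and 45.5% and 22.7% of the other matrix genes. Col4a1 and Col4a2, the chains of basement membrane collagen, rose in orpk (1.56 ± 0.03 and 1.89 ± 0.04) with no passed change in WT. Col4a3 held 7.64, 8.19 and 7.41 CPM in static WT and 8.99, 9.65 and 8.82 CPM in sheared WT. In orpk it stood at 1.35, 1.68 and 1.68 CPM in static orpk and 22.5, 28.5 and 22.5 CPM in sheared orpk. It changed little in WT and crossed above WT in orpk, with fold changes of 0.25 ± 0.11 in WT and 3.96 ± 0.13 in orpk, a difference of 3.71 ± 0.19 (edgeR quasi-likelihood adjusted p = 2.20e-20). Col3a1 and Nid2 fell in orpk alone (-1.52 ± 0.06 and -2.78 ± 0.05). Col5a3 rose in WT and fell in orpk at 1.14 in WT and -1.54 in orpk, as did Vcan, a proteoglycan, at 0.92 in WT and -0.77 in orpk. Tnc, tenascin C, was opposite to these, at -0.22 in WT and 1.86 in orpk.

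Of the TGF-beta and BMP list 13 of 23 were higher and 4 lower (56.5% and 17.4%, against 33.5% and 29.0% of all tested genes). Inhba, the activin A chain, rose in orpk and fell in WT at -0.90 ± 0.08 in WT and 1.49 ± 0.05 in orpk, a difference of 2.395 ± 0.09 (edgeR quasi-likelihood adjusted p = 1.01e-24). Smad6, an inhibitor of BMP signalling, did the same at -1.33 in WT and 0.39 in orpk, while Smad7 rose in both at 0.19 in WT and 1.11 in orpk. In the Hedgehog pathway, which signals through the cilium, Gli1 rose in WT from 0.522, 0.42 and 0.517 to 2.16, 2.27 and 1.71 CPM and fell in orpk from 9.41, 8.66 and 8.05 to 6.22, 5.29 and 5.74 CPM, a difference of -2.65 ± 0.29 (edgeR quasi-likelihood adjusted p = 3.55e-10). Its receptor Ptch1 and the co-receptors Cdon and Gas1 fell more in orpk, with differences of -0.81, -0.85 and -2.52. Over 9 Hedgehog genes 2 were higher, 4 lower and 3 did not pass (22.2% and 44.4%), and with library totals 1 was higher and 5 lower. The 17 Wnt genes were 4 higher and 7 lower (23.5% and 41.2%), with Axin2, a Wnt target, at 1.32 in WT and 0.23 in orpk.

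Ift88, the gene with the insertion, lies on the plus strand of chromosome 14 at positions 57424062 to 57517936 of GRCm38. It held 13.4, 17.4 and 16.0 CPM in static WT and 12.8, 13.3 and 13.9 CPM in sheared WT. Values in orpk were 7.49, 8.46 and 7.47 CPM in static orpk and 6.37, 7.36 and 6.98 CPM in sheared orpk. The genotypes were apart at both conditions, and the response did not part them: the log2 fold change was -0.22 ± 0.09 in WT and -0.18 ± 0.12 in orpk, a difference of 0.04 ± 0.15 (edgeR quasi-likelihood adjusted p = 0.843). Genes on the other strand overlap Ift88, so its reads could include theirs. The 31 genes of the cilium and of intraflagellar transport were 11 higher, 11 lower and 9 not passed (35.5% each way, near the 33.5% and 29.0% of all tested genes), with a median of 0.04 that was -0.06 with library totals. Pkd1, polycystin-1, and Ift43 had differences of 0.98 and 0.77. Ift80, Tmem67, the retrograde motor Dync2h1 and Ift122 had the lowest, from -0.58 to -0.53.

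Targets of p53 rose in WT for 16 of 20 and in orpk for 11, and 9 differences were lower and 5 higher (45% and 25%, against 29.0% and 33.5% of all tested genes). Ccng1, cyclin G1, held 52.2, 58.1 and 53.4 CPM in static WT and 205, 203 and 197 CPM in sheared WT. Its orpk libraries held 159, 153 and 169 CPM in static orpk and 166, 158 and 163 CPM in sheared orpk. WT rose from far below orpk to above it while orpk stayed level, at 1.89 ± 0.04 in WT and 0.01 ± 0.04 in orpk, a difference of -1.87 ± 0.06 (edgeR quasi-likelihood adjusted p = 3.73e-27). Eda2r, a TNF receptor family member, had fold changes of 2.799 in WT and -0.19 in orpk. Cdkn1a, the cell cycle inhibitor p21, fell in orpk from 59.1, 55.4 and 57.1 to 20.1, 22.3 and 21.5 CPM, while WT, at 203, 175 and 194 CPM static and 215, 194 and 196 CPM sheared, did not pass, a difference of -1.50 ± 0.08 (edgeR quasi-likelihood adjusted p = 5.08e-19). Mdm2, the p53 ligase, was opposite at 0.63 in WT and -0.14 in orpk, and Pmaip1 rose more in orpk at 0.62 in WT and 1.63 in orpk.

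Immediate early genes, which respond within minutes to growth and stress signals, were lower for 9 of 20 and higher for 3 (45% and 15%, against 29.0% and 33.5% of all tested genes). Fos held 3.26, 5.04 and 4.25 CPM in static WT and 6.77, 6.88 and 6.89 CPM in sheared WT. Orpk libraries stood at 6.42, 4.39 and 5.34 CPM in static orpk and 1.57, 1.57 and 2.25 CPM in sheared orpk. The static groups overlapped and the sheared groups did not, at 0.71 ± 0.15 in WT and -1.58 ± 0.21 in orpk, a difference of -2.29 ± 0.25 (edgeR quasi-likelihood adjusted p = 3.26e-10). Egr1 and Jun were opposite in the same way, at 0.89 in WT and -0.17 in orpk and at 0.27 in WT and -0.55 in orpk, while Atf3 rose in orpk and did not pass in WT, at 0.20 in WT and 1.12 in orpk. Feedback genes of ERK signalling gave 4 higher and 4 lower of 15, 26.7% each way (7 lower with library totals), with Dusp6 rising in orpk only (1.37 ± 0.13) and Etv5 rising more in WT at 2.88 in WT and 1.13 in orpk.

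Amino acid and oxidative stress genes were higher in orpk more often than lower. The ATF4 and unfolded protein list had 16 of 24 higher and 4 lower (median 0.43), and the NRF2 list 14 of 24 higher and 7 lower (median 0.27). These are 66.7% and 16.7% for the first and 58.3% and 29.2% for the second, against 33.5% and 29.0% of all tested genes, so that the share of lower NRF2 genes was near that of all genes. Slc7a11, the cystine importer found in both lists, rose in orpk from 27.9, 25.8 and 29.2 to 116, 122 and 129.6 CPM, against 3.07, 4.27 and 4.02 and 4.67, 4.66 and 4.25 CPM in WT, a difference of 1.90 ± 0.17 (edgeR quasi-likelihood adjusted p = 1.52e-12). Slc7a5, a leucine transporter, was opposite at -0.32 in WT and 1.49 in orpk, and Atf4 and Asns, asparagine synthetase, rose in both at 0.14 in WT and 1.07 in orpk and at 0.59 in WT and 1.59 in orpk. The chaperones Hsp90b1 and Calr had lower responses in orpk (-0.45 and -0.60). Nqo1, a quinone reductase and NRF2 target, rose in both at 1.67 in WT and 1.82 in orpk, and its difference did not pass. Oxidative phosphorylation had 15 of 28 genes lower and 3 higher (53.6% and 10.7%, against 29.0% and 33.5% of all tested genes), with a median of -0.14. With library totals 19 were lower and 1 higher, with a median of -0.24.

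**Figure D5:**
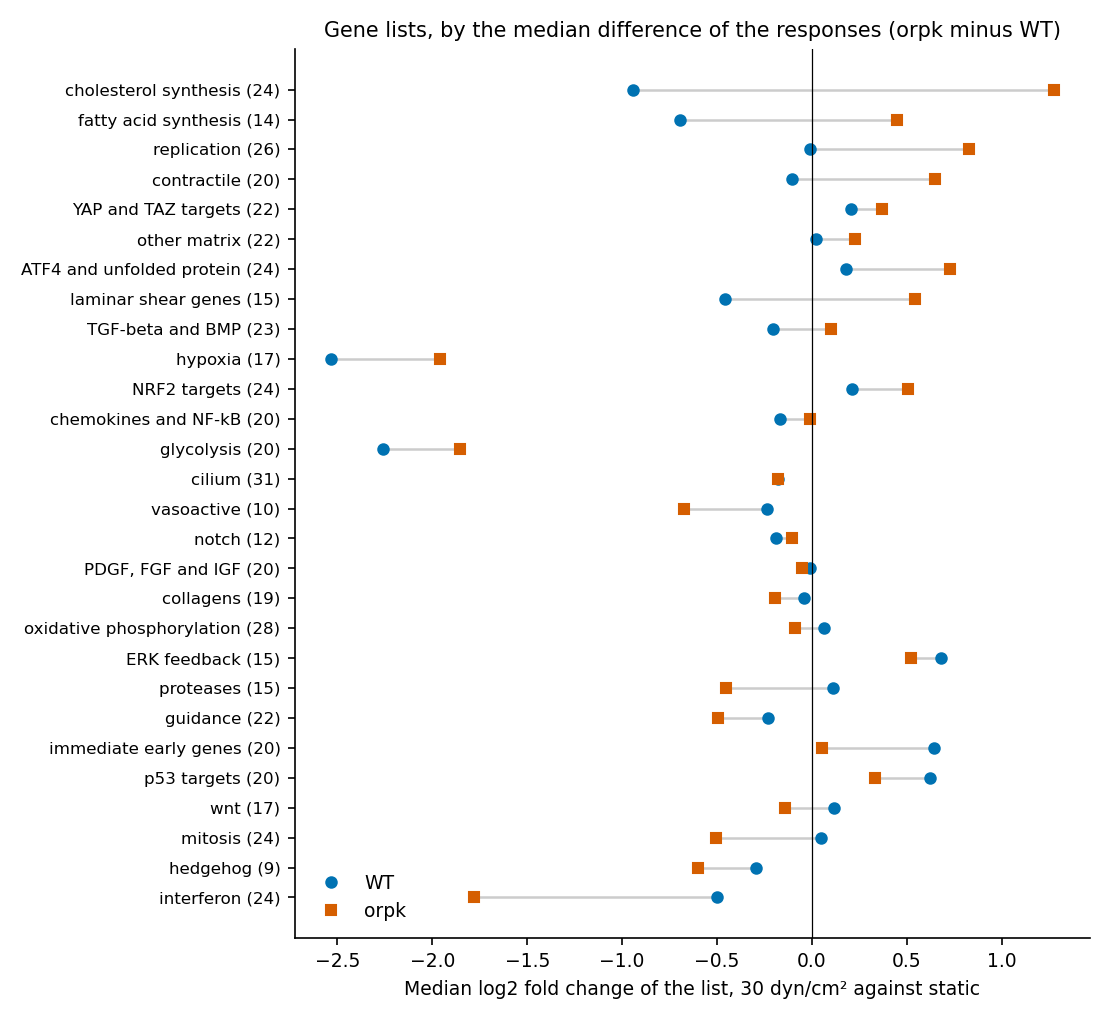
Median log2 fold change from static to 30 dyn/cm² of each gene list in WT (circles) and orpk (squares), with the number of genes in brackets, ordered by the median difference. Cholesterol synthesis is at the top with medians of -0.94 and 1.27, interferon at the bottom with -0.50 and -1.78, and glycolysis and hypoxia are far to the left in both.

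The genotypes changed order between static culture and flow for 890 of the 11768 tested genes (7.56%), with both gaps past the threshold. For 537 of them WT was higher in static cells and orpk under flow, and for 353 the reverse. Both gaps were over 1 on the log2 scale for 20 and for 13 of these. Besides Tm7sf2, Vldlr and Col4a3, this change of order was seen in Deptor, an inhibitor of the kinase mTOR. Deptor held 35.6, 34.3 and 34.8 CPM in static WT and 41.4, 41.1 and 44.2 CPM in sheared WT. The orpk level was 83.3, 81.1 and 77.2 CPM in static orpk and 13.4, 12.5 and 13.8 CPM in sheared orpk. Orpk dropped below WT, with fold changes of 0.28 ± 0.06 in WT and -2.61 ± 0.07 in orpk, a difference of -2.88 ± 0.09 (edgeR quasi-likelihood adjusted p = 6.93e-27). Complement component C3 crossed in the same direction, with fold changes of -0.42 in WT and -3.48 in orpk and a difference of -3.05 ± 0.22 (edgeR quasi-likelihood adjusted p = 6.51e-10).

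Opposite responses were also seen outside these lists, among them in Gja1 and Clu. Gja1, connexin 43 of gap junctions, held 3.98, 3.57 and 3.1 CPM in static WT and 13.4, 15.1 and 14.5 CPM in sheared WT. In orpk it stood at 93.8, 95.1 and 106 CPM in static orpk and 39.3, 37.2 and 40.6 CPM in sheared orpk. It rose in WT and fell in orpk, which narrowed a wide gap, at 2.02 ± 0.12 in WT and -1.33 ± 0.06 in orpk, a difference of -3.35 ± 0.13 (edgeR quasi-likelihood adjusted p = 1.39e-24). Clu, clusterin, a secreted chaperone, held 35.8, 37.4 and 35.7 CPM in static WT and 99.2, 96.5 and 105 CPM in sheared WT. Values in orpk were 13.6, 13.3 and 14.7 CPM in static orpk and 5.09, 5.36 and 3.72 CPM in sheared orpk. Here the gap widened from both sides, at 1.47 ± 0.05 in WT and -1.54 ± 0.11 in orpk, a difference of -3.01 ± 0.12 (edgeR quasi-likelihood adjusted p = 6.10e-24).

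The most extreme differences came from genes that one genotype hardly expressed. Of the 12 highest and 12 lowest differences 19 had a group under 1 CPM, and of the 381 differences over 2 on the log2 scale 173 were under 1 CPM in both groups of 1 genotype. The highest was C1qtnf3, a secreted C1q-related protein, with 0.718, 0.49 and 0.862 CPM in static WT and 0.659, 0.111 and 0.276 CPM in sheared WT. In orpk it rose from 35.3, 39.7 and 44.4 to 1096, 1082 and 1148 CPM, and the fold changes were -1.03 ± 0.82 in WT and 4.80 ± 0.11 in orpk, a difference of 5.83 ± 0.92 (edgeR quasi-likelihood adjusted p = 9.19e-05). The lowest was Spon2, a matrix protein, at 0.653, 0.21 and 0.287 CPM in static WT and 1.38, 1.05 and 1.54 CPM in sheared WT, and 42.3, 45.3 and 39.8 CPM in static orpk and 2.47, 2.43 and 2.95 CPM in sheared orpk. Its fold changes of 1.77 ± 0.37 in WT and -4.02 ± 0.12 in orpk, a difference of -5.79 ± 0.39 (edgeR quasi-likelihood adjusted p = 1.82e-16) thus set a small rise in WT beside a fall of most of the orpk level. The SE of its WT response was above that of its orpk response, as it was for C1qtnf3.

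The rule on reads also shaped this end of the list. Genes with 4 reads in their lowest group, just inside, had differences from -5.63 to 3.79 over 99 tested genes. Genes with 3 reads, just outside, ran from -5.13 to 4.34 over 127. In all, 1290 genes outside the rule were fitted with 3 or fewer reads in a group, these 127 among them. Of their differences 138 passed, 44 higher and 94 lower. Inside the rule 7366 of 11768 passed (62.6%), 33.5% higher and 29.0% lower. Another 322 genes met the rule and were too low to test.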

How the data were processed

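Poly(A) RNA was read as stranded single ends of 50 nt, per the labels' protocols. Per the submitters' processing notes, reads went through CASAVA 1.8.2, STAR 2.4 on GRCm38 and featureCounts 1.4.6. The authors deposited a table of raw counts, whole numbers of reads for each gene in each library, without normalisation. Strand setting and treatment of multiply mapped reads are not given in the sources used here. Of 147 genes named by rule 77 overlap another gene of GENCODE M21 and 65 one on the other strand, so their reads could include a neighbour's.

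Counts were filtered by filterByExpr (13058 genes), scaled by TMM and fitted in R 4.3.3 with edgeR 4.0.16 (robust quasi-likelihood, 6 group means, 18 libraries, 12 residual degrees of freedom, biological coefficient of variation 3.28%). F tests were adjusted by Benjamini-Hochberg over all 13058 genes at 0.05. CPM are TMM-scaled, SE is the log2 value over the root of F, and pairings of libraries used log2 CPM with a prior count of 2. Totals ran from 13626480 to 17387553 counts. The method was also run on simulated counts in which most genes had no response to flow. In the data most genes responded, so that run cannot show how the method behaves in that setting. Figures were drawn with matplotlib 3.10.9.

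The members, the rule for naming and the 33 lists of genes were chosen with earlier results of these data known. Named by rule were Ift88, Klf2, Klf4, Nos3, Edn1, Vcam1, Pecam1 and Acta2, and up to 4 passed members of each list with the largest differences. Among passed genes of at least 5 CPM on average, a regular symbol and no overlap, these were joined by the 12 highest and 12 lowest, the 6 opposite genes per direction with the largest smaller response, and the 3 changes of order per direction with the largest smaller gap. Other list members were named after their values were seen. Lists are described by counts over tested members and medians, with no test. Alternatives were RLE factors, library totals, no filter, DESeq2 1.42.0, the 4 groups alone, a replicate block and each library left out. Chosen after seeing the data were a minimum of 1 CPM in each group and leaving out the library at 2 dyn/cm² that stood apart in each genotype. Some genes of these lists are counted in them and are not reported here by name or drawn.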

Additional observations from a re-analysis of the deposited data

Results flagged for a closer look

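Both flagged results are classes of genes whose response had opposite directions in the 2 genotypes, each response and the difference past the threshold of edgeR's quasi-likelihood test. The first class held 1057 genes that fell in WT and rose in orpk, and 350 of them differed by over 1 on the log2 scale. The second held 776 genes that rose in WT and fell in orpk, 271 of them by over 1. Both responses were over 1 on the log2 scale for 36 and for 32 genes. The causes of these differences were not tested.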

How the results depend on the processing

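Over 20 alternative settings, 2924 of 2939 values for the 147 genes named by rule kept their direction and their side of the threshold. Calls were lost 11 times, for Icam1, Krt8 and Mmp9 when a library was left out. The reversed values were differences near 0 that had not passed: Pecam1 at -0.33 without orpk replicate 3 at 30 dyn/cm² (-0.33 to 0.86 over left-out libraries), and Ift88 at -0.056 with library totals, -0.0059 without orpk replicate 2 at 30 dyn/cm² and -0.034 without static WT replicate 2 (-0.034 to 0.14 over left-out libraries). The number of genes lower by over 1 was 412 with at least 1 CPM in each group, where 10344 genes qualify, against 727. The other 335 of 336 counts stayed within 1.5 times.

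The difference passed for 3783 higher and 3605 lower genes with RLE factors, 3612 and 3404 with DESeq2, 3932 and 3362 without the filter, and 3858 and 3845 in the 4 groups alone. Library totals moved the median difference of all members from 0.02 to -0.08, and the cause was not tested. Leaving out 1 of the 12 libraries compared gave 7062 to 7173 passed genes, and at 2 dyn/cm² it gave 7629 without replicate 1 of WT and 7401 without replicate 2 of orpk. Of 18 same-numbered pairs 0 correlated over 0.1 in their deviations from the group mean (-0.0285 to 0.0863). Between static and sheared orpk the same-numbered pairs had 0.0863, 0.062 and 0.0857. The pairs of unlike number there ran from -0.0614 to -0.0179. Whether replicate numbers pair the samples was not tested. With the replicate block 3962 genes were higher and 3407 lower.

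Small counts of list members moved by over 1.5 times in 15 cases, 8 of them with a minimum of 1 CPM in each group and 4 with library totals. With the minimum the growth factor list was 5 higher and 3 lower, Wnt 4 lower, Notch 1 lower and chemokines 5 higher. Precision was limited by depth for genes under 1 CPM, which made up 230 passed genes in both WT groups and 150 in both orpk groups.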

Other observations

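The shear of 2 dyn/cm² gives a second difference of responses from the same static libraries, so the 2 differences are not independent and are given side by side only. It passed edgeR's quasi-likelihood test for 6771 of the 11768 tested genes. The sterol genes Lss and Hmgcs1 had differences of 1.75 ± 0.05 and 1.82 ± 0.05 at 2 dyn/cm², against 2.93 ± 0.05 and 2.62 ± 0.05 at 30 dyn/cm². For Jag1 the values were 1.63 ± 0.07 and 2.87 ± 0.07, and for Klf4 0.88 ± 0.09 and 2.203 ± 0.09. For Edn1, endothelin-1, they were 1.12 ± 0.21 and 2.01 ± 0.19. The helicase gene Mcm6 had 1.64 ± 0.06 at 2 dyn/cm² and 1.402 ± 0.06 at 30 dyn/cm², and the mitotic kinase Plk1 had -0.32 ± 0.06 and -1.15 ± 0.07. For Ccl5 they were -3.37 ± 0.22 and -5.03 ± 0.34, for Gja1 -3.22 ± 0.15 and -3.35 ± 0.13 and for Spon2 -3.62 ± 0.34 and -5.79 ± 0.39. Whether the differences at 2 and 30 dyn/cm² differ from each other was not tested.

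Axon guidance genes, many of which also steer vessels, had 6 of 22 differences higher and 10 lower (27.3% and 45.5%, against 33.5% and 29.0% of all tested genes). Ntn4, netrin 4, fell in WT from 39.7, 39.3 and 37.0 to 9.17, 8.88 and 8.66 CPM and did not pass in orpk (3.57, 3.1 and 3.88 and 4.27, 4.07 and 4.88 CPM), a difference of 2.45 ± 0.18 (edgeR quasi-likelihood adjusted p = 2.88e-15). Nrp2, a coreceptor of VEGF-C and semaphorins, fell in WT and rose in orpk at -1.64 in WT and 0.57 in orpk. Ntn1, netrin 1, did the reverse at 0.84 in WT and -1.12 in orpk, and Sema6a, a transmembrane semaphorin, fell in orpk from 54.6, 53.4 and 51.9 to 8.76, 9.79 and 9.77 CPM. Among 15 proteases and inhibitors 6 differences were higher and 8 lower (40% and 53.3%), where Mmp19 and Mmp2 fell in orpk (-2.48 ± 0.09 and -1.03 ± 0.05).

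Of 6 epithelial and mesothelial markers 4 had higher responses in orpk (Krt19, Msln, Upk3b and Krt8) and 0 lower ones. These are 66.7% and 0%, against 33.5% and 29.0% of all tested genes. Only 2 of the 4 had at least 1 CPM in each group, and Upk3b had 6 static and 13 sheared reads in orpk. Krt7 and Krt18, at -0.26 ± 0.41 and -0.44 ± 0.76, did not pass. Krt18 had 7119 static and 10012 sheared reads in WT against 7 and 6 in orpk. Krt8 had 6993 and 10400 reads in WT against 14 and 40 in orpk. In static culture 5 of the 6 were lower in orpk than in WT and 1 higher. The difference of Krt8, 1.19 ± 0.42 (edgeR quasi-likelihood adjusted p = 0.0148), was 0.78 without static orpk replicate 2 and 0.88 without orpk replicate 2 at 30 dyn/cm², where it did not pass (adjusted p = 0.13 and 0.114). Krt19 fell in both genotypes, from 173, 159.6 and 154 to 16.7, 16.3 and 15.5 CPM in WT and from 96.8, 92.0 and 102 to 19.0, 16.4 and 16.2 CPM in orpk. The summed list fell with flow from 558 to 576 CPM to 437 to 462 CPM in WT and from 297 to 301 CPM to 183 to 186 CPM in orpk. In orpk most of this sum was Msln and Krt19, with 8578 and 4173 static reads. The WT markers did not move together. Krt19, Msln and Upk3b fell there from 7610, 4430 and 136 to 853, 1493 and 44 reads, while Krt8 and Krt18 rose. Epcam and Cldn4 also rose in WT, from 142 and 73 to 598 and 313 reads. In orpk Epcam had 1 read in each group, and Cldn4 had 3 static and 2 sheared. The leukocyte markers had 2 of 4 members lower in orpk and 0 higher (50% and 0%, against 29.0% and 33.5% of all tested genes). Their summed levels in WT were 52.2 to 59.1 CPM static and 21.1 to 23.1 CPM under flow. In orpk they were 33.7 to 39.0 CPM static and 15.4 to 18.1 CPM under flow.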
